A study of Mus musculus with 4 samples.

Results

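Chemokines and their receptors were followed on 4 one-colour Agilent mouse arrays of pancreatic islet RNA. The members are the genes whose name on the array is that of a Ccl, Cxcl, Cx3cl or Xcl chemokine or of a Ccr, Cxcr, Cx3cr or Xcr receptor, each followed by its number. This rule, which uses no measured value to include or leave out a gene, gave 54 genes of 22290 named genes on the arrays, 35 of them chemokines and 19 receptors. Where a gene had several probes, the one that was brightest on average stood for it.

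The islets came from C57BL/6 mice aged 24 weeks and were freed with collagenase, separated on a gradient and picked by hand. Each group has 1 array, namely transgenic males with an E2 implant, profiled after 6 weeks of implantation (male Tg E2), transgenic females (female Tg), transgenic males, diabetic per the labels (male Tg) and wild-type males (male WT). E2 commonly stands for estradiol. The labels used here name neither the transgene nor its promoter and do not say how many mice gave RNA to an array, and they list no sham implant for the other groups. With no replicates no p-value can be given, and every difference below is one between single arrays.

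Chemokines are small secreted proteins that guide leukocytes along a gradient, and most act through receptors coupled to G proteins on the cell that moves. They are named after the spacing of their first cysteines, and a receptor often binds several ligands. In tissues, some are set off by interferon or by NF-kappaB, while others lay out the B and T cell zones of lymphoid organs, and several of these zone-forming chemokines also appear in inflamed tissue elsewhere.

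A level is the log2 of the background-corrected intensity of a probe after subtraction of the 75th percentile of the array's probes, so 0 is the brightness below which 75% of the probes lie. Levels of different probes are not compared, since probes bind with different strength. A probe counts as measured in a comparison when the scanner software called it well above background on each array of the pair. A difference is given in log2 ± the standard error of the scanner software's error model, which covers technical error only and had a median of 0.21 in each of the 3 main comparisons over the measured members. Differences of at least 2-fold are counted. Where only 1 of the 2 arrays was above background, an "at least" value sets the brighter array against the higher of the dim probe's own level and the lowest level among probes above background on the dim array.

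Of the 54 members, 40 were well above background on at least 1 array and 30 on all 4. The count per array was 36 on male Tg E2, 35 on female Tg, 39 on male Tg and 33 on male WT. The 14 members above background on no array included the chemokines Ccl20, Ccl22, Ccl26, Cxcl2, Cxcl3, Cxcl5, Cxcl15 and Cxcl17 and the receptors Ccr1, Ccr4, Cxcr1, Cxcr2 and Xcr1. Cxcr1 and Cxcr2 are the receptors of neutrophils for Cxcl1 and its relatives, and Xcr1 marks cross-presenting dendritic cells. For these genes no difference could be measured, and the data do not show that they were absent.

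**Figure D1:**
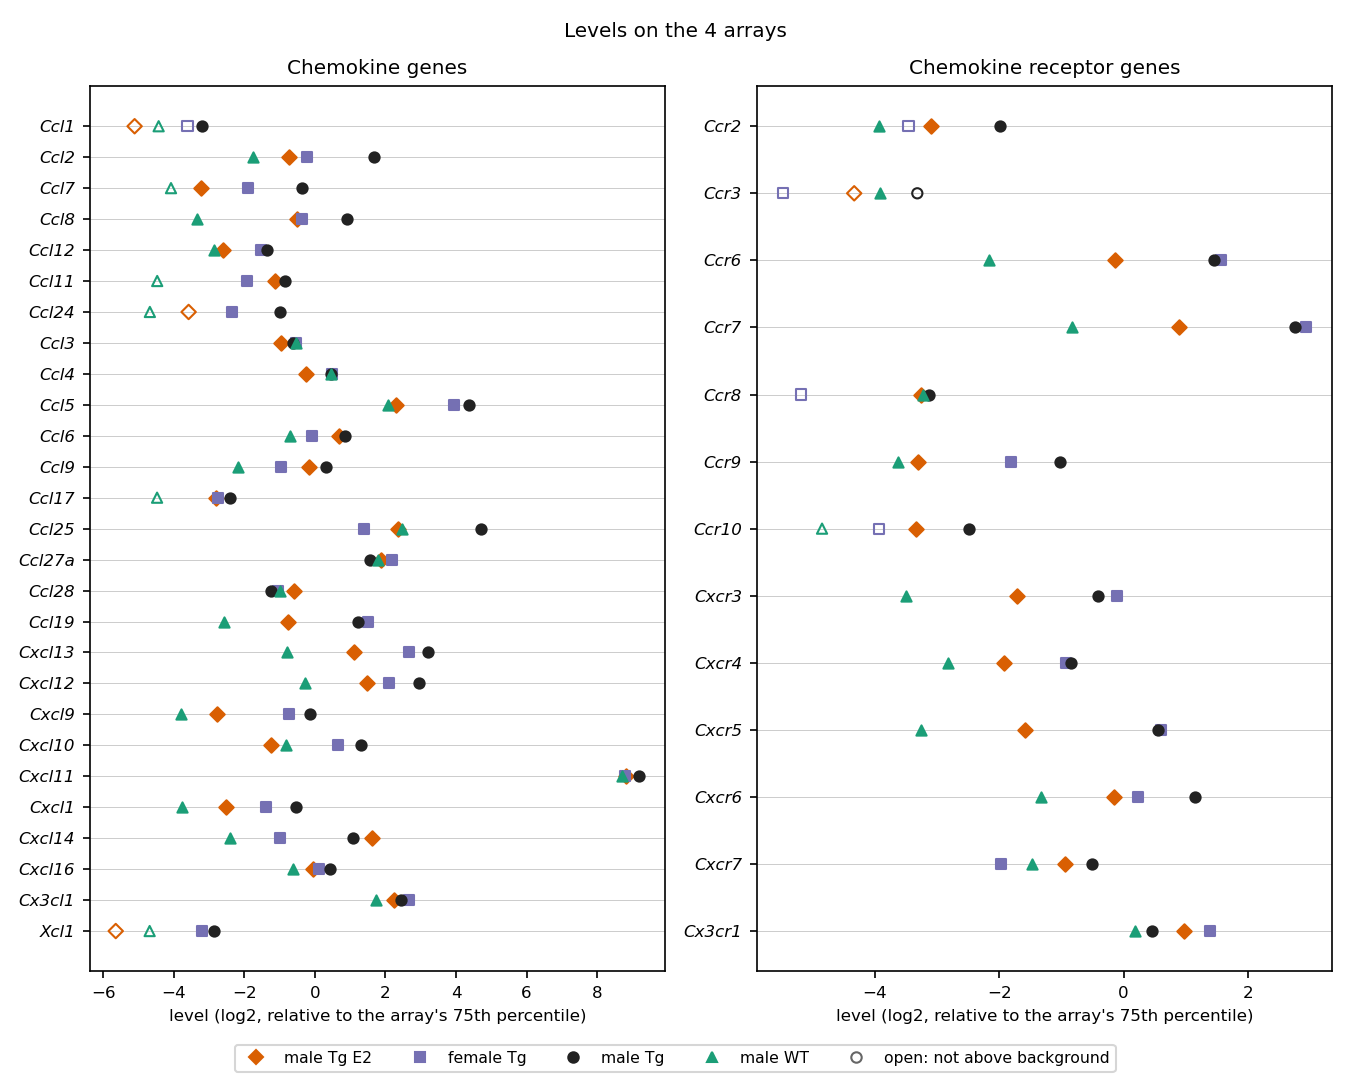
Level of the 40 members above background on at least 1 array (log2, relative to the array's 75th percentile), chemokines on the left and receptors on the right, with 1 symbol per array and open symbols for probes not well above background. No error bars are drawn. Among the 30 members measured on all 4 arrays the male WT array was the lowest for 23 and the highest for 0. Among all 13845 genes so measured it was the lowest for 22.4% and the highest for 43.5%.

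The male Tg array was set against the male WT array, the pair that carries the transgene and the diabetes label. Among 32 members measured in this pair, 23 (71.9%) read at least 2-fold higher on the male Tg array, against 15.7% of the 14338 genes measured, and 0 were lower, against 8.68% of those genes. The median difference of the measured members was 2.25 log2, with a range of −0.25 to 4.25, while that of all measured genes was −0.21. Higher values were seen for 15 of 21 chemokines and for 8 of 11 receptors. A further 7 members, namely Ccl1, Ccl7, Ccl11, Ccl17, Ccl24, Xcl1 and Ccr10, were above background on the male Tg array only of this pair and at least 2-fold higher by an "at least" value, but 91.5% of all genes detected in that way passed the same limit.

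The male Tg E2 array, set against the male Tg array, had 0 of 36 measured members at least 2-fold higher, against 2.53% of 14573 genes, and 20 (55.6%) at least 2-fold lower, against 8.02%. The median of the members was −1.19 log2 and that of all genes 0.12. Ccl24 was lower by an "at least" value, as were 43.8% of all genes detected on the male Tg array only of this pair. The female Tg array, set against the male Tg array, had 0 of 35 measured members higher, against 3.54% of 14164 genes, and 9 (25.7%) lower, against 8.59%. There the median of the members was −0.43 and that of all genes 0.10, and Ccr2 was lower by an "at least" value (38.5% of genes so detected). The lower members were 12 of 24 chemokines and 8 of 12 receptors on the male Tg E2 array, and 8 of 26 chemokines and 1 of 9 receptors on the female Tg array. All 3 comparisons use the male Tg array, so its own errors enter each of them, and the difference between the last 2 was not tested.

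**Figure D2:**
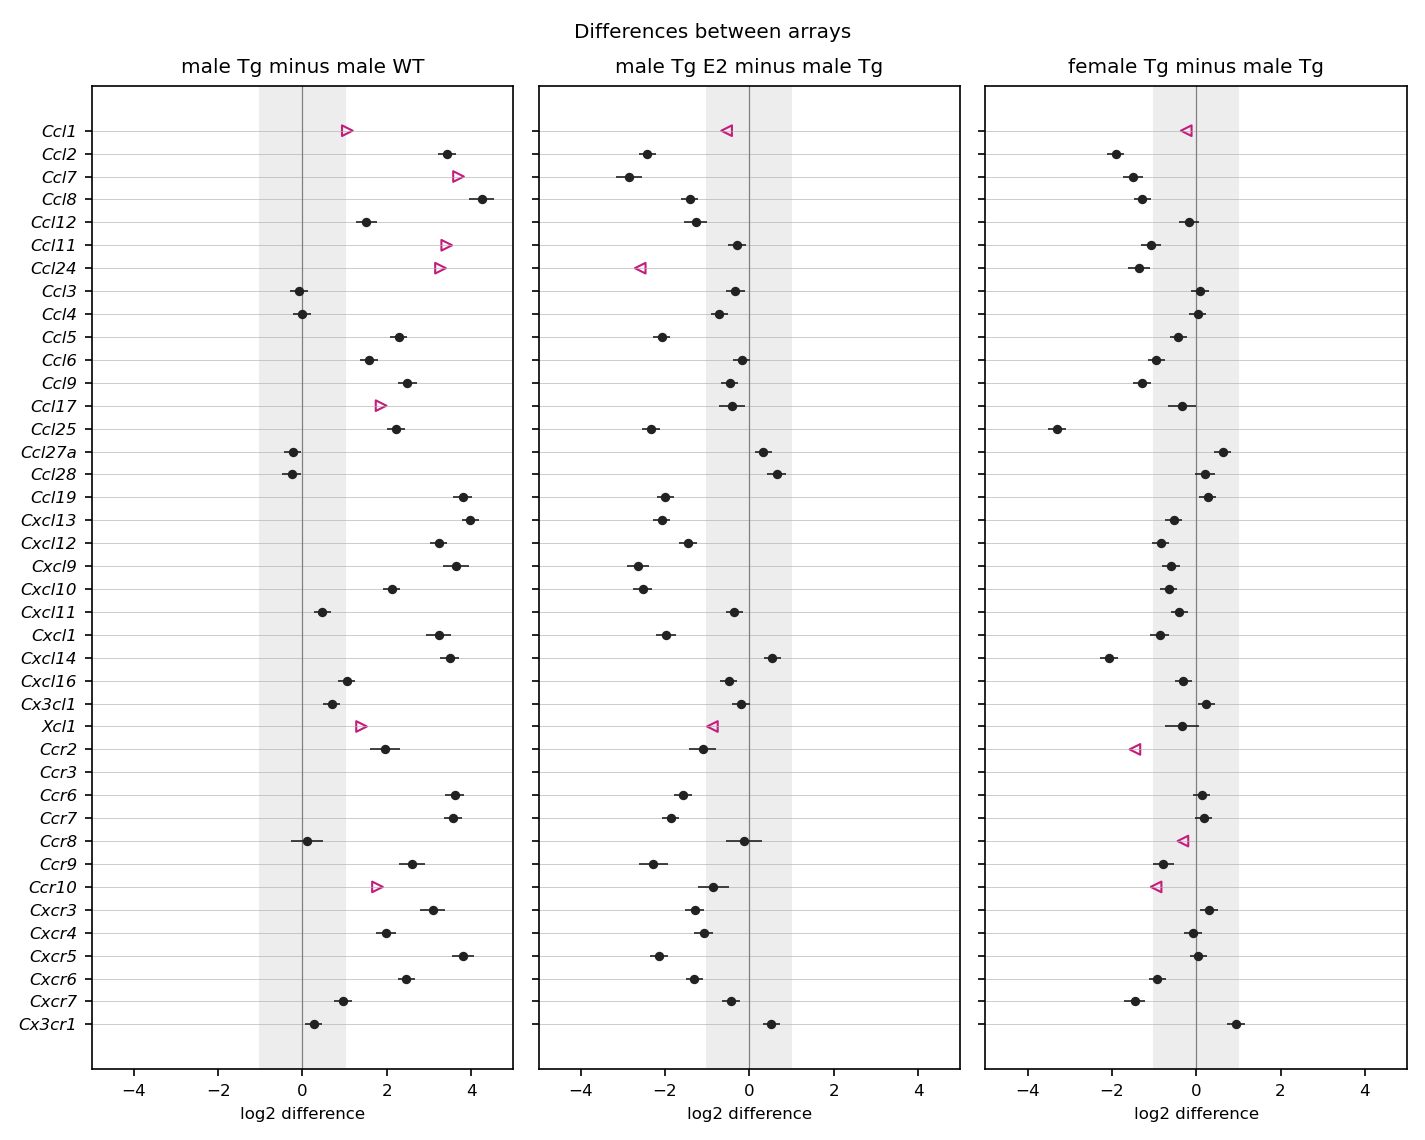
Log2 difference of each member in the 3 main comparisons, with the standard error of the scanner software's error model. Open triangles are "at least" values, the grey band marks differences under 2-fold, and positive values mean a higher level on the array named first. The points of male Tg minus male WT lie mostly right of the band and those of male Tg E2 minus male Tg mostly left of it or inside it.

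The chemokines that place B and T cells in lymphoid tissue, and their receptors, were far higher on the male Tg array than on the male WT array. On the male Tg E2 array they lay between those arrays, and on the female Tg array the receptors and Ccl19 were close to the male Tg level. Cxcl13, the chemokine that draws B cells into follicles (probe at chr5:96389861-96389920, build mm9), read 1.12 on male Tg E2, 2.66 on female Tg, 3.20 on male Tg and −0.79 on male WT. It was 15.8-fold higher on male Tg than on male WT (3.99 ± 0.21 log2), 4.23-fold lower on male Tg E2 than on male Tg (−2.08 ± 0.20), and 1.45-fold lower on female Tg than on male Tg (−0.54 ± 0.20). Its receptor gene Cxcr5 (chr9:44320071-44320130), carried by B cells and follicular helper T cells, read −1.59 on male Tg E2, 0.59 on female Tg, 0.55 on male Tg and −3.26 on male WT. The male Tg value exceeded male WT by 3.80 ± 0.26 (14.0-fold), male Tg E2 differed from male Tg by −2.14 ± 0.22 (4.40-fold lower), and female Tg differed from male Tg by 0.05 ± 0.21. For ligand and receptor alike male WT was lowest and male Tg E2 next, and the transgenic arrays without an implant were high.

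Ccl19, which brings T cells and mature dendritic cells into T cell zones (chr4:42250105-42250164), read −0.77 on male Tg E2, 1.495 on female Tg, 1.22 on male Tg and −2.58 on male WT. Its differences were 3.80 ± 0.22 for male Tg minus male WT (13.9-fold), −1.99 ± 0.21 for male Tg E2 minus male Tg and 0.27 ± 0.20 for female Tg minus male Tg. A pair of other Ccl19 probes gave the same directions with smaller sizes for the first 2 differences, at 1.88 and 2.28, −1.28 and −1.29, and 0.40 and 0.66. The part of mouse chromosome 4 with Ccl19 and Ccl27a also holds near-identical gene copies, so neither signal can be given to a single copy.

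Ccr7, the receptor of Ccl19 on naive T cells, B cells and migrating dendritic cells (chr11:99005551-99005610), read 0.89 on male Tg E2, 2.93 on female Tg, 2.75 on male Tg and −0.83 on male WT. The male Tg array was 11.9-fold above male WT (3.58 ± 0.21), male Tg E2 was 3.64-fold below male Tg (−1.86 ± 0.20) and female Tg differed from male Tg by 0.18 ± 0.20. Ccr6, found on B cells and on some T cells, has Ccl20 as its ligand, which was above background nowhere. It read −0.13 on male Tg E2, 1.57 on female Tg, 1.44 on male Tg and −2.17 on male WT. The differences of Ccr6 were 3.61 ± 0.22 for male Tg minus male WT (12.2-fold), −1.58 ± 0.21 for male Tg E2 minus male Tg and 0.13 ± 0.20 for female Tg minus male Tg. Both receptors were thus as high on the female Tg array as on the male Tg array within about 1 standard error.

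Cxcl12, a stromal chemokine that retains haematopoietic cells and lymphocytes (chr6:117131227-117131286), read 1.49 on male Tg E2, 2.10 on female Tg, 2.94 on male Tg and −0.29 on male WT. It differed by 3.23 ± 0.21 for male Tg minus male WT, by −1.45 ± 0.20 for male Tg E2 minus male Tg and by −0.84 ± 0.20 for female Tg minus male Tg. The other Cxcl12 probe, for another transcript, gave 3.66 and −1.42 for the first 2 and −0.11 for the last, so the probes part on whether the female Tg array was lower. Cxcr4, its signalling receptor on most leukocytes, read −1.93 on male Tg E2, −0.93 on female Tg, −0.84 on male Tg and −2.82 on male WT, with differences of 1.98 ± 0.24, −1.08 ± 0.23 and −0.08 ± 0.22 in the order of the comparisons above. Cxcr7, now called Ackr3, encodes an atypical receptor that takes up Cxcl12, and behaved otherwise. Its levels were −0.94 on male Tg E2, −1.96 on female Tg, −0.51 on male Tg and −1.48 on male WT, so the lowest was on the female Tg array, 2.74-fold below male Tg (−1.45 ± 0.25). For male Tg minus male WT the Cxcr7 difference was 0.97 ± 0.22, just under 2-fold.

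Some markers of other cells moved with these members and others did not. In bulk RNA fewer cells of a type cannot be told apart from less RNA per cell. Of the B cell markers, 7 of 7 measured were at least 2-fold higher on male Tg than on male WT (median 3.58), 7 of 7 were lower on male Tg E2 than on male Tg (median −1.84), and 1 of 8 was lower on female Tg than on male Tg (median −0.11). The summed linear level of the 8 B cell markers was 18.7 times the 75th percentile on male Tg E2, 59.9 on female Tg, 86.6 on male Tg and 6.52 on male WT, and Pax5, a defining B cell gene, was not above background on male Tg E2 or male WT. Jchain, the brightest of these markers, weighs heavily in this sum. It read 2.87 on male Tg E2, 4.38 on female Tg, 5.53 on male Tg and 1.03 on male WT. Jchain was also the 1 marker lower on female Tg than on male Tg (−1.15 ± 0.20). Of the T and NK cell markers, 5 of 8 measured were higher on male Tg than on male WT (median 1.63), 4 of 7 were lower on male Tg E2 than on male Tg (median −1.95) and 2 of 9 were lower on female Tg than on male Tg (median −0.09). Their summed level was 15.8 on male Tg E2, 23.7 on female Tg, 44.5 on male Tg and 19.4 on male WT, with Ncr1 and Klrb1c above background on none, and the bright granzyme gene Gzma weighs heavily in it. Gzma read 1.84 on male Tg E2, 2.07 on female Tg, 4.38 on male Tg and 2.58 on male WT. Cd3d, a defining T cell gene, read −0.64 on male Tg E2, 1.55 on female Tg, 1.31 on male Tg and −1.85 on male WT. Like Cd3d, Cd3g (3.19) and Cd2 (3.69) were higher on male Tg than on male WT. Cd3e was instead highest on male WT, with 1.58 on male Tg E2, 1.90 on female Tg, 1.99 on male Tg and 2.39 on male WT. Trac was above background on male Tg E2 and male WT only. Of the 5 lymph node stroma markers, 2 were higher on male Tg than on male WT and the same 2 lower on male Tg E2 than on male Tg. They were Pdpn and Cr2, and Cr2 is also counted among the B cell markers. Madcam1 (0.64), Lyve1 (−0.73) and Prox1 (−0.48) were under 2-fold for male Tg minus male WT. On female Tg 1 was higher and 1 lower than on male Tg. The part of B cells, T and NK cells and lymph node stroma in the chemokine differences was not tested.

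**Figure D3:**
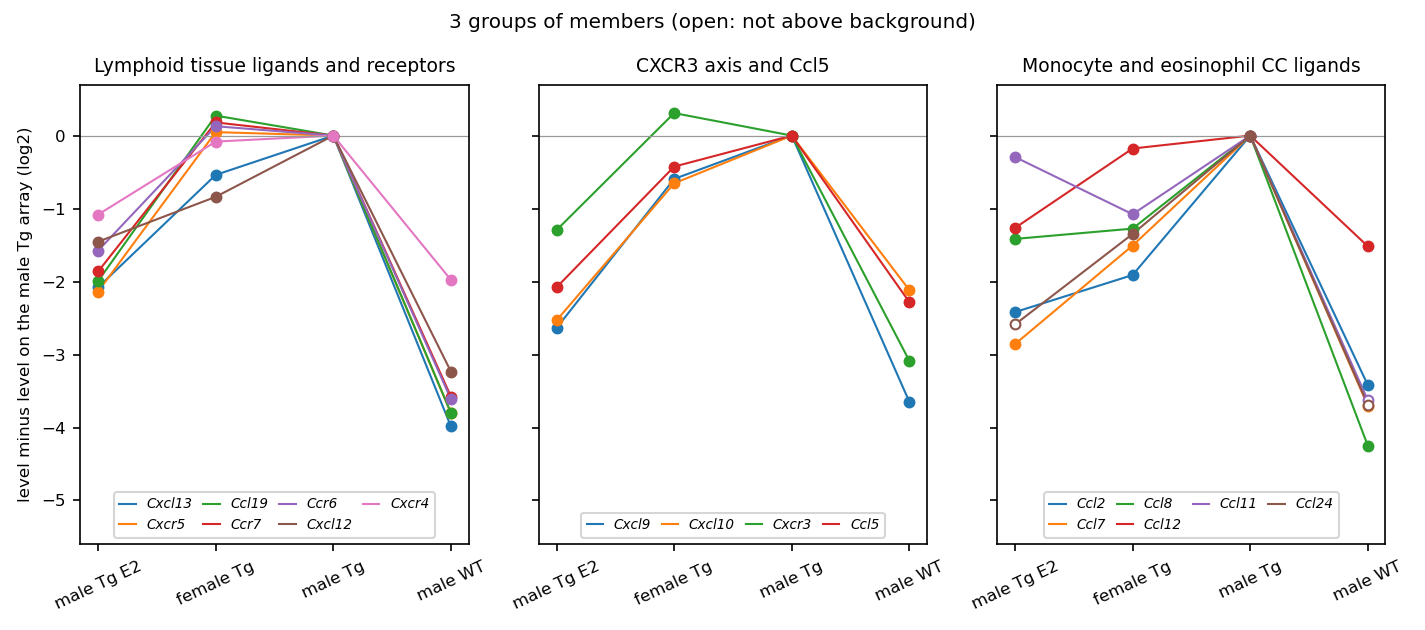
Level of 17 members on each array minus their level on the male Tg array (log2), in 3 groups, with open points where a probe was not well above background and no error bars. In the left panel the receptors and Ccl19 on the female Tg array lie near 0 while the male Tg E2 points lie between −2.14 and −1.08, and in the right panel Ccl2, Ccl7, Ccl8, Ccl11 and Ccl24 lie at least 1 below 0 on the female Tg array.

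Chemokines induced by interferon and the receptor that binds them, Cxcr3 of activated T cells and NK cells, were also higher on male Tg than on male WT and lower on male Tg E2 than on male Tg. Cxcl9 (chr5:92752191-92752250), induced above all by interferon gamma, read −2.77 on male Tg E2, −0.73 on female Tg, −0.14 on male Tg and −3.78 on male WT. It differed by 3.65 ± 0.31 for male Tg minus male WT (12.5-fold), −2.64 ± 0.26 for male Tg E2 minus male Tg (6.22-fold lower) and −0.59 ± 0.21 for female Tg minus male Tg. Cxcl10 (chr5:92775781-92775840), induced by several interferons, read −1.24 on male Tg E2, 0.64 on female Tg, 1.30 on male Tg and −0.82 on male WT. For this gene the male Tg E2 array was the lowest of the 4, 5.78-fold below male Tg (−2.53 ± 0.22) and 0.41 ± 0.22 log2 below male WT, whereas female Tg was 0.65 ± 0.21 below male Tg.

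Cxcr3, on the X chromosome, read −1.71 on male Tg E2, −0.11 on female Tg, −0.42 on male Tg and −3.50 on male WT. The difference was 3.09 ± 0.30 for male Tg minus male WT (8.50-fold), −1.29 ± 0.23 for male Tg E2 minus male Tg and 0.31 ± 0.21 for female Tg minus male Tg. Receptor and ligands shared their direction in the first 2 comparisons, and in the last the receptor was slightly above and the ligands slightly below the male Tg array. Ccl5, a product of activated T cells, NK cells and other cells, read 2.29 on male Tg E2, 3.94 on female Tg, 4.36 on male Tg and 2.08 on male WT. Its male Tg level was 4.86-fold above male WT (2.28 ± 0.20), and male Tg E2 was 4.23-fold below male Tg (−2.08 ± 0.20), so that male Tg E2 lay only 0.20 ± 0.20 above male WT. On the female Tg array Ccl5 was 0.43 ± 0.20 below male Tg.

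Cxcl11, the third ligand of Cxcr3, was the exception, with a probe of extreme brightness on every array. Its probe (chr5:92788567-92788626) read 8.82 on male Tg E2, 8.78 on female Tg, 9.18 on male Tg and 8.70 on male WT, brighter than 99.9% of the probes of each array. The other Cxcl11 probe (chr5:92788640-92788699) read 2.50 on male Tg E2, 2.52 on female Tg, 2.57 on male Tg and 2.44 on male WT. Neither probe differed by 2-fold in any main comparison. The bright probe shares a run of 23 to 31 bases with probes of 5 other genes, also bright, at levels between 7.78 and 9.94. Windows of 30 bases from the 6 deposited probe sequences are shown because they bear on whether this signal belongs to Cxcl11, with the 17 bases common to all in capitals:
Cxcl11: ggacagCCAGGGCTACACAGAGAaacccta
Elk1: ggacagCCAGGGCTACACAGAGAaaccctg
Glrx2: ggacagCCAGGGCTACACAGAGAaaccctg
Med16: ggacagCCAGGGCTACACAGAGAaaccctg
Ndor1: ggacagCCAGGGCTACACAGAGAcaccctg
Gm10856: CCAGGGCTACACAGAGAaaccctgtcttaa
The other probes lie at chrX:20510521-20510580 (Elk1), chr1:145596708-145596767 (Glrx2), chr10:79357669-79357728 (Med16), chr2:25100377-25100436 (Ndor1) and chr15:79677131-79677190 (Gm10856) on mm9. Runs of this kind occur in B1 elements, short interspersed repeats of the mouse genome that many transcripts contain. Whether repeat-containing RNA gives the signal was not tested, and the Cxcl11 level is not read as expression of the gene. The probe nevertheless stays among the measured members in all counts and medians, and among the 23 members lowest on male WT.

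The promoters of genes of this group are shown because Cxcl9, Cxcl10 and Cxcl1 were lower together on the male Tg E2 array. The sequences are the 250 bases before the start of the gene, 5′ to 3′ on the gene's strand, from a RefSeq promoter table on build GRCm38.p6, in which 38 of the 54 members were matched. A search on both strands used TTTCNNTTTC, a core of the interferon-stimulated response element, TTCNNNGAA, the STAT site known as GAS, and the NF-kappaB consensus, and matches are in capitals.
Cxcl10, chr5:92348890-92349139, minus strand: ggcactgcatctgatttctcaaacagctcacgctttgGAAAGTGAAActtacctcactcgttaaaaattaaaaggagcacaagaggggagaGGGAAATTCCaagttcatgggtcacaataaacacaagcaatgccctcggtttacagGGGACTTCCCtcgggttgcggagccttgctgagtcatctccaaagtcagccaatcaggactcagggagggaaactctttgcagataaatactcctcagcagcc
Cxcl9, chr5:92328080-92328329, minus strand: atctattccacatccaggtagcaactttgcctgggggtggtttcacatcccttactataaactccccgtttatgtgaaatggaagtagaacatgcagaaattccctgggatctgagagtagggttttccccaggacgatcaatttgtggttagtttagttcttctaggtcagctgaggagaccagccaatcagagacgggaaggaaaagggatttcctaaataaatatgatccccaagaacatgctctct
Cxcl1, chr5:90890995-90891244, plus strand: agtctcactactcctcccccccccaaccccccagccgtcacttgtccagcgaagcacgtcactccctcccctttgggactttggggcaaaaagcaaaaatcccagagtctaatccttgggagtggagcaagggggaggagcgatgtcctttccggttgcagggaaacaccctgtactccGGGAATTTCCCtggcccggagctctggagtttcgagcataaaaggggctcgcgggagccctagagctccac
Cxcl10 held the interferon motif on the opposite strand 213 bases before the start and NF-kappaB matches 159 and 103 bases before it. In Cxcl1 there were overlapping NF-kappaB matches on both strands, 71 and 70 bases before the start, while Cxcl9 held none of the 3 motifs in this window. Over windows of 300 bases, which add the first bases of the gene, the NF-kappaB consensus was found in 9 of 38 members (23.7%), against 5.14% of 27025 genes. The interferon motif was found in 3 of 38 members (7.89%), against 3.99% of those genes, and the GAS motif in 3 of 38 (7.89%), against 9.55%. The 9 members with the NF-kappaB consensus were Ccl9, Ccl20, Ccl27a, Cxcl1, Cxcl2, Cxcl3, Cxcl10, Ccr3 and Ccr6. Of these, Cxcl1, Cxcl10 and Ccr6 were at least 2-fold lower on male Tg E2 than on male Tg, as were 20 of all 36 measured members (55.6%). Ccl9 and Ccl27a were under 2-fold there, and Ccl20, Cxcl2, Cxcl3 and Ccr3 were not measured in that pair. A match describes letters and not a bound factor, and a link between motif and difference was not tested.

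A row of CC chemokine genes that attract monocytes and eosinophils lies on chromosome 11 between the Ccl2 probe (chr11:81850650-81850709) and the Ccl1 probe (chr11:81990451-81990510). In this row Ccl2, Ccl7, Ccl8 and Ccl11 were at least 2-fold lower on female Tg than on male Tg, and Ccl12 was not. Ccl2, the main attractant of monocytes with Ccr2, read −0.74 on male Tg E2, −0.24 on female Tg, 1.68 on male Tg and −1.74 on male WT. Its probe is spotted 10 times on each array, with a standard deviation between spots of 0.0964 on male Tg E2, 0.0850 on female Tg, 0.0345 on male Tg and 0.143 on male WT. Ccl2 was 10.7-fold higher on male Tg than on male WT (3.42 ± 0.21), 5.35-fold lower on male Tg E2 than on male Tg (−2.42 ± 0.21) and 3.76-fold lower on female Tg than on male Tg (−1.91 ± 0.21). The gaps between male Tg and the other arrays were thus many times the spread between spots, which is no measure of the spread between mice.

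Ccl7, another ligand of Ccr2, read −3.23 on male Tg E2, −1.88 on female Tg and −0.38 on male Tg, and was not well above background on male WT (−4.08). It was at least 13.0-fold higher on male Tg than on male WT, 7.25-fold lower on male Tg E2 than on male Tg (−2.86 ± 0.31) and 2.84-fold lower on female Tg than on male Tg (−1.51 ± 0.24). Ccl8, in mice a ligand of Ccr8, lay in the same row. Its levels were −0.52 on male Tg E2, −0.38 on female Tg, 0.90 on male Tg and −3.35 on male WT. These give 4.25 ± 0.29 for male Tg minus male WT (19.0-fold, but 2.78 log2 under normexp background correction), −1.42 ± 0.21 for male Tg E2 minus male Tg and −1.27 ± 0.21 for female Tg minus male Tg. Both arrays that were below male Tg were still above male WT for Ccl8, by 7.13-fold on male Tg E2 and 7.86-fold on female Tg.

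Ccl12, a mouse chemokine that also acts on Ccr2, read −2.61 on male Tg E2, −1.52 on female Tg, −1.34 on male Tg and −2.86 on male WT. It differed by 1.52 ± 0.26 for male Tg minus male WT, −1.27 ± 0.27 for male Tg E2 minus male Tg and −0.18 ± 0.24 for female Tg minus male Tg, so the female Tg array was near male Tg for this member of the row. Ccl11, the eosinophil attractant eotaxin, had the opposite pattern. Its levels were −1.14 on male Tg E2, −1.92 on female Tg and −0.84 on male Tg, and it was not well above background on male WT (−4.47). The male Tg array was at least 10.7-fold above male WT, male Tg E2 differed from male Tg by −0.29 ± 0.22, and female Tg by −1.08 ± 0.24. Ccl24, a further eosinophil attractant that lies on chromosome 5, was above background on female Tg (−2.34) and male Tg (−0.99) but not on male Tg E2 (−3.58) or male WT (−4.68). It was at least 9.68-fold higher on male Tg than on male WT, at least 6.01-fold lower on male Tg E2 than on male Tg, and 2.55-fold lower on female Tg than on male Tg (−1.35 ± 0.26). Ccl1, at the end of the row, was above background on male Tg only (−3.20), at least 2.09-fold above male WT. The other Ccl1 probe, the one with a RefSeq accession, was above background on no array.

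The receptors of these ligands were dim. Ccr2 read −3.09 on male Tg E2, −1.98 on male Tg and −3.94 on male WT, and on female Tg it was not well above background (−3.46). The differences of Ccr2 were 1.96 ± 0.36 for male Tg minus male WT, −1.11 ± 0.32 for male Tg E2 minus male Tg and at least 2.74-fold lower for female Tg than for male Tg. Ccr3, the receptor of Ccl11 and Ccl24 on eosinophils, was called above background on male WT only (−3.92), and gave no difference. Its level was not lower on male Tg (−3.32), where it was not so called, nor was it on male Tg E2 (−4.33) or female Tg (−5.48) called above background. Ccr8 read −3.25 on male Tg E2, −3.12 on male Tg and −3.23 on male WT, within their error of each other, and was not well above background on female Tg (−5.19).

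A second row of CC chemokine genes on chromosome 11, from Ccl5 at chr11:83339296-83339355 to Ccl4 at chr11:83478052-83478111, was split. Ccl9, a mouse chemokine of myeloid cells that binds Ccr1, read −0.15 on male Tg E2, −0.96 on female Tg, 0.32 on male Tg and −2.18 on male WT. Its differences were 2.49 ± 0.22 for male Tg minus male WT (5.62-fold), −0.47 ± 0.21 for male Tg E2 minus male Tg and −1.28 ± 0.21 for female Tg minus male Tg. Ccl6, a close relative, read 0.69 on male Tg E2, −0.08 on female Tg, 0.87 on male Tg and −0.71 on male WT, with differences of 1.58 ± 0.21, −0.18 ± 0.21 and −0.94 ± 0.21 in the same order. Both were near the male Tg level on the male Tg E2 array and lower on the female Tg array. Ccl3 and Ccl4, which lie in the same row and attract T cells and macrophages, lay between −0.71 and 0.09 log2 in all 3 main comparisons. Macrophage markers stood beside this row with a summed level of 75.3 on male Tg E2, 74.2 on female Tg, 74.6 on male Tg and 59.8 on male WT. Itgam, the brightest of them, weighs heavily in this sum and was highest on male WT. It read 5.11 on male Tg E2, 5.03 on female Tg, 5.08 on male Tg and 5.23 on male WT. Of 11 measured macrophage markers, 6 were higher on male Tg than on male WT, 0 were lower on male Tg E2 than on male Tg and 2 were lower on female Tg than on male Tg, while Cd163 was above background on none. Their part in these differences was not tested.

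Cxcl14, made by epithelial and stromal cells, was highest on the male Tg E2 array. It read 1.61 on male Tg E2, −0.995 on female Tg, 1.07 on male Tg and −2.42 on male WT. The difference was 3.49 ± 0.23 for male Tg minus male WT (11.2-fold), 0.54 ± 0.20 for male Tg E2 minus male Tg and −2.07 ± 0.21 for female Tg minus male Tg (4.19-fold lower). Cxcl1, the attractant of neutrophils, had the same order of arrays as Cxcl9. It read −2.51 on male Tg E2, −1.40 on female Tg, −0.53 on male Tg and −3.76 on male WT, and differed by 3.23 ± 0.30, −1.98 ± 0.24 and −0.87 ± 0.22 in the order of the main comparisons. Neutrophil markers stood beside Cxcl1, with 4 of 6 measured higher on male Tg than on male WT, 3 of 7 lower on male Tg E2 than on male Tg and 3 of 6 lower on female Tg than on male Tg. Their summed level was 115 on male Tg E2, 95.6 on female Tg, 121 on male Tg and 108 on male WT, most of it from Csf3r. Mpo was above background on male Tg E2 (−3.68) and male Tg (0.08) only. Elane, another of these markers, was instead highest on male WT (2.17), with 1.27 on male Tg (−0.90 ± 0.20). Ly6g was 0.25 ± 0.28 above male Tg on male Tg E2. The part of neutrophils in the Cxcl1 differences was not tested. Beside Cxcl14 and Ccl11, markers of stellate cells and matrix were higher on male Tg than on male WT in 6 of 6 measured cases (median 3.96), lower on male Tg E2 than on male Tg in 0 of 7 (median −0.01), and lower on female Tg than on male Tg in 5 of 7 (median −1.12). Their summed level was 90.7 on male Tg E2, 46.5 on female Tg, 106.9 on male Tg and 8.73 on male WT. Whether these members and the matrix markers come from the same cells was not tested.

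Ccl25, a chemokine of thymus and small intestine, and its receptor Ccr9 were both higher on the male Tg array. The Ccl25 probe at chr8:4359916-4359975 read 2.36 on male Tg E2, 1.39 on female Tg, 4.69 on male Tg and 2.47 on male WT. It was 4.66-fold higher on male Tg than on male WT (2.22 ± 0.20), 5.04-fold lower on male Tg E2 than on male Tg (−2.33 ± 0.20) and 9.87-fold lower on female Tg than on male Tg (−3.30 ± 0.20). A second measured Ccl25 probe, at chr8:4348678-4348737 and for another transcript, read −2.56 on male Tg E2, −2.43 on female Tg, −2.09 on male Tg and −2.09 on male WT. It gave −0.00090 for male Tg minus male WT, −0.47 for male Tg E2 minus male Tg and −0.34 for female Tg minus male Tg, so the probes of this gene disagree. Acinar markers, whose summed level was 5065 on male Tg E2, 808 on female Tg, 7659 on male Tg and 761 on male WT, were higher on male Tg than on male WT in 8 of 8 cases and lower on female Tg than on male Tg in 8 of 8, but lower on male Tg E2 than on male Tg in 1 of 8. Ccr9 read −3.30 on male Tg E2, −1.81 on female Tg, −1.03 on male Tg and −3.63 on male WT. For Ccr9 the differences were 2.60 ± 0.32 for male Tg minus male WT, −2.28 ± 0.34 for male Tg E2 minus male Tg and −0.78 ± 0.24 for female Tg minus male Tg.

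Cxcl16, a membrane-bound chemokine, and its receptor Cxcr6, found on effector T cells and NKT cells, differed less in the ligand than in the receptor. Cxcl16 read −0.06 on male Tg E2, 0.13 on female Tg, 0.43 on male Tg and −0.62 on male WT, and was 1.05 ± 0.21 above male WT on male Tg, 0.49 ± 0.21 below male Tg on male Tg E2 and 0.31 ± 0.21 below it on female Tg. Cxcr6 read −0.16 on male Tg E2, 0.23 on female Tg, 1.15 on male Tg and −1.32 on male WT. It was 5.53-fold higher on male Tg than on male WT (2.47 ± 0.21), 2.47-fold lower on male Tg E2 than on male Tg (−1.31 ± 0.21) and 1.89-fold lower on female Tg than on male Tg (−0.92 ± 0.21). A second Cxcr6 probe gave 2.13, −1.01 and −0.93 for the same comparisons. Cx3cl1, or fractalkine, and Cx3cr1, its receptor on monocytes, macrophages and NK cells, were under 2-fold in each main comparison. Cx3cl1 lay between −0.19 and 0.69 log2 and Cx3cr1 between 0.26 and 0.94 in the main comparisons, and Cx3cr1 had its highest level on the female Tg array (1.39) and its lowest on male WT (0.19). A second Cx3cr1 probe gave 0.99, 0.20 and 0.43 in the order of the main comparisons.

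The ligands of Ccr10 and Ccr4 differed little or were dim. Ccl27a and Ccl28, epithelial chemokines that act on Ccr10, lay between −0.25 and 0.65 log2 in the main comparisons. Ccr10 itself was above background on male Tg E2 (−3.34) and male Tg (−2.48) and not on female Tg (−3.93) or male WT (−4.85), and was at least 3.43-fold higher on male Tg than on male WT. Ccl17, a ligand of Ccr4, read −2.82 on male Tg E2, −2.73 on female Tg and −2.40 on male Tg and was not well above background on male WT (−4.47), so the 3 transgenic arrays were close to each other and male Tg was at least 3.64-fold above male WT. Xcl1, made by T cells and NK cells, was above background on female Tg (−3.20) and male Tg (−2.86) but not on male Tg E2 (−5.64) or male WT (−4.68), and was at least 2.64-fold higher on male Tg than on male WT.

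**Figure D4:**
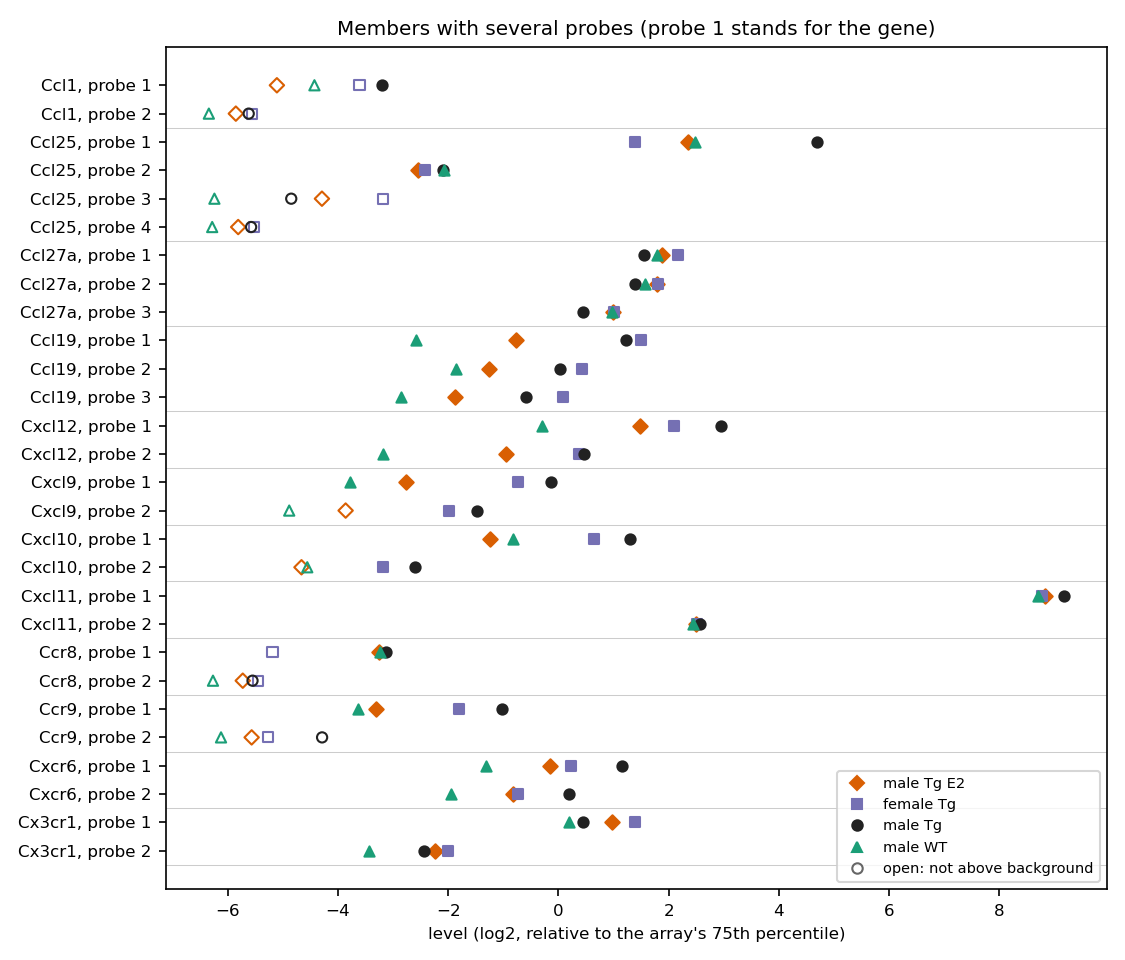
Level of every probe of the 12 members with several probes (log2, relative to the array's 75th percentile), 1 symbol per array, open where not well above background. Probe 1 stands for the gene. The Ccl25 probes differ in the spread of their arrays, and both Cxcl11 probes have the 4 arrays close together.

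The male Tg E2 and female Tg arrays were also set against the male WT array. On male Tg E2, 14 of 32 measured members (43.8%) were at least 2-fold higher than on male WT, against 8.82% of 14539 genes, and 0 were lower, against 2.64%. Those 14 were Ccl6, Ccl8, Ccl9, Ccl19, Cxcl1, Cxcl9, Cxcl12, Cxcl13, Cxcl14, Ccr6, Ccr7, Cxcr3, Cxcr5 and Cxcr6, with Cxcl14 (4.03 ± 0.23) the highest. Of these, Cxcl1, Cxcl9, Cxcr3, Cxcr5 and Cxcr6 were under 2-fold under normexp background correction, and Cxcl9 also after quantile normalization and with the series matrix. On female Tg, 20 of 30 measured members (66.7%) were at least 2-fold higher than on male WT, against 7.64% of 14175 genes, and 1, Ccl25 (−1.08 ± 0.20), was lower, against 3.47%. Among the highest were Ccl19 (4.07 ± 0.22), Cxcr5 (3.85 ± 0.26), Ccr7 (3.76 ± 0.21) and Ccr6 (3.74 ± 0.22), all of the lymphoid group. By "at least" values 2 more members were higher on male Tg E2 (72.3% of genes so detected) and 5 more on female Tg (93.9%). The female Tg array differs from the male WT array in sex as well as in the transgene, and these cannot be told apart.

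Other genes of the pathway were taken as a list of 45 non-members for platelet chemokines, scavenging receptors, signalling, adhesion, inducing cytokines and transcription factors. For male Tg minus male WT, 20 of 33 measured were at least 2-fold higher and 0 lower (median 1.12), against 15.7% and 8.68% of all genes, and 7 more were higher by an "at least" value, as were 91.5% of all genes so detected. Ltb, which encodes a lymphotoxin subunit needed for lymphoid tissue, differed by 4.09 ± 0.21, the adhesion gene Vcam1 by 3.14 ± 0.21, the leukocyte GTPase gene Rac2 by 3.08 ± 0.21, the integrin gene Itga4 by 2.79 ± 0.21 and Rarres2, the gene of the attractant chemerin, by 2.70 ± 0.20. For male Tg E2 minus male Tg, 18 of 33 were lower and 0 higher (median −1.08), against 8.02% and 2.53% of all genes, with 6 more lower by an "at least" value (43.8% of genes so detected). There the platelet chemokine genes Ppbp and Pf4 stood at −3.70 ± 0.20 and −3.32 ± 0.20, Ltb and the interferon regulator gene Irf7 at −1.98 each and Rac2 at −1.88. For female Tg minus male Tg, 4 of 38 were lower and 0 higher (median −0.28), a share lower that is near the 8.59% of all genes. They were Irf7 (−1.15), Pf4 (−1.04), Rarres2 (−1.02) and Ifng, the gene of interferon gamma (−1.02). By an "at least" value the cytokine gene Il6 was also lower (−2.29), as were 38.5% of all genes so detected.

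Markers of the labelled tissue were detected, with 7 of 7 beta cell and 5 of 5 alpha and delta cell markers above background on all 4 arrays. Acinar markers were so as well, in 8 of 8 cases, so detection alone does not tell islets from other pancreatic tissue. These islet markers differed between arrays too, with 4 of 7 beta cell markers at least 2-fold lower (median −1.51) and 4 of 5 alpha and delta cell markers higher (median 1.40) on male Tg than on male WT. Of the beta cell markers 2 were higher on male Tg E2 and 2 on female Tg than on male Tg. Between 48.5% and 53.8% of probes were well above background on an array, the 75th percentile of intensity was 299 on male Tg E2, 261 on female Tg, 202 on male Tg and 365 on male WT, and no spot was saturated. Platelet and erythrocyte markers had summed levels of 8.03 and 49.7 on male Tg E2, 46.1 and 149 on female Tg, 89.4 and 520.0 on male Tg, and 38.6 and 110 on male WT, so blood cell markers were lowest on the male Tg E2 array. The platelet markers include Pf4 and Ppbp, which are also counted among the pathway genes above. The part of platelets and erythrocytes in the chemokine differences was not tested. Under normexp background correction Cxcl16 and Ccr2 were under 2-fold for male Tg minus male WT, Ccl12, Ccr2, Cxcr3 and Cxcr4 for male Tg E2 minus male Tg, and Ccl9, Ccl11, Ccl24 and Cxcr7 for female Tg minus male Tg. Normexp also made the log2 difference over 1.5 times smaller for Ccl8 (2.78), Cxcl9 (2.16), Cxcl1 (1.85), Cxcr3 (1.62), Ccr9 (1.36), Cxcr4 (1.25) and Ccl12 (1.01) for male Tg minus male WT. The same held for Cxcl9 (−1.68), Ccl7 (−1.62), Cxcl1 (−1.27) and Ccr9 (−1.10) between male Tg E2 and male Tg, all still past 2-fold.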

How the data were processed

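Per the file headers, the deposited scanner files hold spot intensity on a linear scale from Agilent Feature Extraction 10.7.1.1, whereas the submitters' processing notes name version 9.5.1.1. The series matrix, an alternative here, holds intensity that the authors quantile normalized, as the equal distributions of its columns show, with a median log2 value of 4.69 in each column. Probe positions are those of the files, on mouse build mm9, and exon or untranslated region was not assigned.

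Outlier-flagged spots were dropped, processed signals averaged per probe and converted to log2, and each array of 62976 spots was scaled to the 75th percentile of its non-control probes. A member is any non-control gene name made of Ccl, Cxcl, Ccr, Cxcr, Xcl, Xcr, Cx3cl or Cx3cr, a number and at most 1 letter. Of the 54 probes used, 52 had an accession in the RefSeq table (GRCm38.p6) and 51 of these the same symbol. Differences of 2 arrays were called at 2-fold and not tested, as each group has 1 array. Members, lists and rules were chosen with earlier results of these data known. Values are given for members called in any main comparison, other detected members by range, and pathway genes up to 6 per comparison by size. Some genes that this rule covers are not reported here. The steps were checked on simulated data. Python 3.11.15, pandas 2.3.3, numpy 2.4.6, R 4.3.3 and limma 3.58.1 were used. The 6 alternatives were normexp background (offset 50), quantile normalization, centring on the median of all genes, no background filter, the series matrix and the mean over a gene's probes.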

Additional observations from a re-analysis of the deposited data

How the results depend on the processing

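No paired analysis was possible because each group has 1 array and the labels give no replicate numbers that pair arrays, and for the same reason no array could be left out. No member's called difference changed sign under any of the 6 alternatives. After normexp background correction the median of the measured members was 1.66 for male Tg minus male WT, −0.75 for male Tg E2 minus male Tg, 0.51 for male Tg E2 minus male WT and 1.08 for female Tg minus male WT, and the counts were 5 lower for female Tg minus male Tg and 9 higher for male Tg E2 minus male WT. Normexp took 2 of 23, 4 of 20 and 4 of 9 called members under 2-fold in the 3 main comparisons, and no other alternative with the background filter took any there. Without the background filter the medians were 1.97, −0.83 and, for female Tg minus male WT, 1.07, and the counts were 37 higher for male Tg minus male WT, 16 lower for female Tg minus male Tg, 22 higher for male Tg E2 minus male WT and 3 lower for female Tg minus male WT. That setting admits probes at background, whose order is not a measurement. The 1 member lower on female Tg than on male WT became 0 after quantile normalization, after centring on the median, with the series matrix and with the mean over probes. Centring on the median of all genes moved the share of higher among all called genes of male Tg minus male WT to 77.8%, against 64.3%, while 24 members were higher and 0 lower. Other causes of these shifts were not tested. With dim probes, such as those of Ccr2, Ccr3, Ccr8, Ccr10, Ccl1 and Xcl1, closeness to background limits what can be seen, and 1 array per group leaves the spread between mice unknown.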
